A study of Mus musculus with 12 samples.

Results

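Transcripts of 6 co-inhibitory receptors, Pdcd1, Lag3, Havcr2, Tigit, Btla and Cd160, were followed across 4 groups of CD4+ T cells. These genes were listed by name as inhibitory receptors of T cells and make up 6 of the 17523 genes in the deposited table. RNA was measured by sequencing of total RNA in 12 libraries, 3 per group, from splenic CD4+ T cells of Gr/fr mice, a C57BL/6 double transgenic line. In this line a Csf2 allele that still makes GM-CSF also drives iCre and blue fluorescent protein, and the Cre switches on a Rosa26eYFP reporter for good, so YFP+ cells are those in which Cre has been active at some time and YFP− cells are those in which the reporter has not been switched on. All 4 groups came from unimmunized mice and carry both alleles. Per the study, mice used for cell sorting were 2 to 3 months old. The groups were naïve (CD44−) YFP−, naïve YFP+, effector memory (TEM, CD44hi) YFP− and TEM YFP+ cells, with no treatment in any of them. YFP reports Cre driven by the Csf2 locus and not current GM-CSF. The comparison by YFP status asks whether a history of GM-CSF expression goes with another level of each receptor.

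Co-inhibitory receptors are surface proteins that dampen T cell signals when they meet their ligands on other cells. PD-1 (Pdcd1) and BTLA recruit phosphatases through motifs in their tails, TIGIT competes with the activating receptor CD226 for shared ligands, LAG-3 binds MHC class II, and TIM-3 (Havcr2) and CD160 bind several ligands. Most of them appear after activation and are known from exhausted, regulatory and follicular T cells, while BTLA is also found on resting T and B cells, TIM-3 on dendritic cells and CD160 on NK cells and other innate-like lymphocytes.

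The data split the 6 receptors into 3 patterns. Pdcd1, Lag3 and Tigit were low in naïve cells and 44.2- to 270-fold higher in TEM cells, at levels that did not pass the test for a difference by YFP status. Btla was high in all 4 groups. Havcr2 and Cd160 were also higher in TEM than in naïve cells, but among TEM cells Havcr2 was 8.97-fold lower and Cd160 5.61-fold higher in YFP+ than in YFP− cells.

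Promoter sequences are shown for 4 members that represent the different patterns: Havcr2 and Cd160, which moved in opposite directions by YFP status, Tigit, which rose most from naïve to TEM cells, and Btla, which was already high in naïve cells. Each is the 250 bases upstream of a RefSeq transcript start on GRCm38.p6, written 5′ to 3′ on the strand of the gene, from RefSeq. For Tigit and Btla this start lies inside the gene's whole RefSeq span, downstream of its outermost start. Capitals mark matches, on either strand, to an NFAT core (GGAAA or TTTCC), an AP-1 motif (TGANTCA), a RUNX core (TGTGGT or ACCACA) or a T-box motif (AGGTGT or ACACCT). No match overlapped another in these windows.
Havcr2 (chr11:46454681-46454930, plus strand): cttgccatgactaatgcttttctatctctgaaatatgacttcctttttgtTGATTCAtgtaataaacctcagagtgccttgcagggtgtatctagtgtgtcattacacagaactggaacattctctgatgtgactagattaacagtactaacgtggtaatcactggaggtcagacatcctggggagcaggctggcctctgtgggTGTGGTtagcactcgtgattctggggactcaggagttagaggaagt
Cd160 (chr3:96829352-96829601, minus strand): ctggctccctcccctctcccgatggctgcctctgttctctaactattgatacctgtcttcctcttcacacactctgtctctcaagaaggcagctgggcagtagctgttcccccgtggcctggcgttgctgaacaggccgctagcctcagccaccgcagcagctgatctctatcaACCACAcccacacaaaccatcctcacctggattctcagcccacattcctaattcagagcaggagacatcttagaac
Tigit (chr16:43664185-43664434, minus strand): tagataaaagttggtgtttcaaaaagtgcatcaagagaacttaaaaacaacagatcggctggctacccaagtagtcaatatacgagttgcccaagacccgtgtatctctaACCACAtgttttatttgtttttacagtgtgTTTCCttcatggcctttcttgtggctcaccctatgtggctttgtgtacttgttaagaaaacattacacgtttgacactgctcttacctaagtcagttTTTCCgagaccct
Btla (chr16:45224087-45224336, plus strand): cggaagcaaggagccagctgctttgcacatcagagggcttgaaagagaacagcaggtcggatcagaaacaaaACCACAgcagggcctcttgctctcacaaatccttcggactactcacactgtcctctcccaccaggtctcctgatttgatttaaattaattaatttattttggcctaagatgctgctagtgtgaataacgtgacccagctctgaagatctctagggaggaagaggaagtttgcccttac

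The RUNX core was found in all 4 windows, at -46 to -41 bases from the start in Havcr2, at -76 to -71 in Cd160, at -140 to -135 in Tigit and at -178 to -173 in Btla. The same letters occur in 14.0% of 32851 promoters of this length. Havcr2 also held an AP-1 motif at -200 to -194, which 6.75% of promoters hold. Tigit held 2 NFAT cores, a motif present in 55.6% of promoters. Pdcd1 held 2 adjacent NFAT cores at -28 to -24 and -23 to -19 and none of the other motifs. Cd160 has a second RefSeq start at which the window held an NFAT core at -145 to -141 and a RUNX core at -101 to -96. The T-box motif, present in 11.8% of promoters, was not found in these letters. Promoters were read for 5 of the 6 members, all but Lag3. A match describes letters and is no evidence of a binding site.

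The 6 genes lie on 5 chromosomes (RefSeq, GRCm38.p6): Pdcd1 on chromosome 1 (94038305 to 94052553), Cd160 on chromosome 3 (96798763 to 96829351), Lag3 on chromosome 6 (124904359 to 124912434), Havcr2 on chromosome 11 (46454931 to 46481255), and Tigit (43626137 to 43665125) and Btla (45223705 to 45252895) on chromosome 16. Tigit spans positions also covered by Zbtb20 and Mir568. The library kit kept strand, but the strand setting of the read counting is not given in the sources used here, so reads shared by these genes could not be told apart.

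Each library held from 40974124 to 57822269 reads on genes, and the values below are normalized counts, that is, reads divided by the library's size factor. All 6 members passed the filter on low values (5 normalized counts or more in 3 libraries or more), and 15587 genes were tested. The sort was checked on its markers. The CD4 T cell list (Cd3d, Cd3e, Cd3g, Cd4, Lat and Trat1) summed to 122233 to 169978 normalized counts in every library, and Cd44 was 21778 to 29383 in TEM and 2334 to 3372 in naïve libraries. Csf2 itself had a mean of 116 normalized counts in TEM YFP+ and 1.75 in TEM YFP− cells. Markers of dendritic cells were present in the TEM libraries, more in YFP− than in YFP+ cells, and markers of innate-like T cells were high in TEM YFP+ libraries. These values are given beside Havcr2 and Cd160.

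The receptor known as PD-1 has the ligands PD-L1 and PD-L2. Pdcd1 was measured at 169, 262 and 210 normalized counts in the naïve YFP− libraries (replicates 1, 2 and 3) and at 184, 241 and 206 in naïve YFP+. In TEM YFP− cells it was 11484, 14172 and 7098, and in TEM YFP+ cells 8523, 16978 and 5521. All 6 TEM libraries lay above all 6 naïve libraries, and the YFP groups overlapped within each cell type. Pdcd1 was higher in TEM than in naïve cells by 5.63 on the log2 scale among YFP− cells (SE 0.35, limma adjusted p = 8.5e-08) and by 5.47 among YFP+ cells (SE 0.35, limma adjusted p = 1.4e-07). Log2 values here and below are of normalized counts plus 1.

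LAG-3 binds MHC class II and restrains CD4+ T cell expansion. Lag3 was 80.6, 138 and 26.5 normalized counts in naïve YFP− libraries and 80.4, 189 and 21.4 in naïve YFP+. TEM YFP− libraries held 6684, 14794 and 4367, and TEM YFP+ libraries 4808, 17953 and 2849. Lag3 had the widest spread of the 6 receptors within the TEM groups, with the highest TEM YFP+ library 6.3 times the lowest. Every TEM library nevertheless lay above every naïve library, and the differences were 6.80 on the log2 scale in YFP− cells (SE 0.85, limma adjusted p = 2.7e-05) and 6.48 in YFP+ cells (SE 0.85, limma adjusted p = 5.9e-05).

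TIGIT shares its ligands with CD226 and CD96. Tigit was 33.4, 40.3 and 12.7 normalized counts in naïve YFP− libraries and 29.7, 64.9 and 25.1 in naïve YFP+. The values were 7219, 9287 and 5729 in TEM YFP− and 5066, 12340 and 4136 in TEM YFP+ libraries. The TEM and naïve libraries did not overlap, and the YFP groups overlapped within TEM and within naïve cells. The step from naïve to TEM cells was the largest among the members in both YFP fractions, at 8.08 on the log2 scale in YFP− cells (SE 0.48, limma adjusted p = 7.0e-08) and 7.41 in YFP+ cells (SE 0.48, limma adjusted p = 1.8e-07).

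BTLA binds HVEM, the product of Tnfrsf14. Btla was 7678, 11981 and 7228 normalized counts in naïve YFP− libraries, 7254, 13725 and 8133 in naïve YFP+, 8389, 10319 and 7187 in TEM YFP− and 5954, 11146 and 7568 in TEM YFP+. The 4 groups overlapped in every pairing. The TEM minus naïve difference did not pass in YFP− cells, at -0.03 on the log2 scale (95% interval -0.64 to 0.57, limma adjusted p = 0.936), or in YFP+ cells, at -0.23 (95% interval -0.83 to 0.37, limma adjusted p = 0.544). Its lowest value in any library was 5954 normalized counts.

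**Figure D1:**
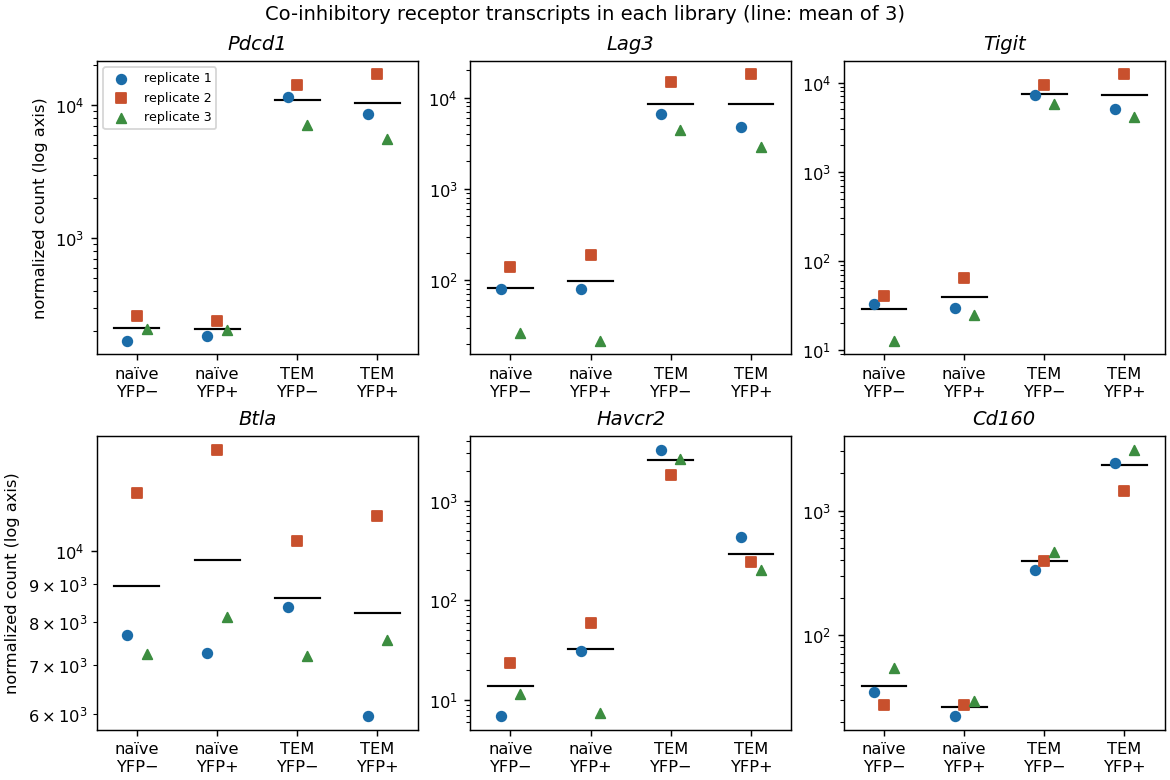
Normalized counts (log axis, a different range in each panel) of the 6 receptors in the 12 libraries, by group. Symbols mark the replicate number and lines the mean of 3 libraries. Pdcd1, Lag3 and Tigit step up from naïve to TEM cells, Btla stays between 5954 and 13725 throughout, and Havcr2 and Cd160 separate the TEM groups by YFP in opposite directions.

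TIM-3 is found on activated T cells and on myeloid and dendritic cells, and galectin-9 and CEACAM1 are among its reported partners. Havcr2 was low in naïve cells, at 6.91, 23.3 and 11.5 normalized counts in YFP− and 30.9, 59.0 and 7.44 in YFP+ libraries. In TEM YFP− cells it was 3254, 1814 and 2613, and in TEM YFP+ cells 437, 241 and 201. The lowest TEM YFP− library was above the highest TEM YFP+ library, and both TEM groups were above all naïve libraries. Havcr2 was lower in TEM YFP+ than in TEM YFP− cells, with a difference of -3.17 on the log2 scale (SE 0.62, 95% interval -4.52 to -1.81, limma adjusted p = 0.0072), and the ratio of YFP− to YFP+ was 7.45, 7.52 and 13.0 in the pairs of libraries with replicate numbers 1, 2 and 3. It passed with each of the 6 TEM libraries left out (limma adjusted p from 0.0133 to 0.0422), and did not pass when replicate 1 or replicate 3 was left out of every group, where the difference was -3.30 and -2.90 (limma adjusted p = 0.111 and 0.0857).

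Markers of other cells moved with Havcr2 between the TEM groups. Of 7 conventional dendritic cell markers 6 were lower in TEM YFP+ than in TEM YFP− cells, and Xcr1 did not pass. Their sum was 9329 to 19300 normalized counts in TEM YFP− and 513 to 1158 in TEM YFP+ libraries, against 76.0 to 353 in naïve libraries, and none of the 7 was at 0 throughout a group. The ratio of YFP− to YFP+ for this sum was 11.6, 18.2 and 16.7 in replicates 1, 2 and 3. Within TEM YFP+ libraries the order differed, with replicate 3 the lowest for Havcr2 (201) and the highest for this sum (1158). In TEM YFP− libraries replicate 2 was the lowest for both, and the highest was replicate 1 for Havcr2 and replicate 3 for the sum. Itgax, which encodes CD11c, was 7956, 5454 and 10593 in TEM YFP− and 607, 245 and 543 in TEM YFP+ libraries. Of 6 plasmacytoid dendritic cell markers 5 were lower in TEM YFP+ cells, and Siglech was 1412 to 3367 normalized counts in YFP− and 26.9 to 118 in YFP+ libraries. The sixth, Ccr9, had values of 497 to 1218 in YFP− and 1096 to 3405 in YFP+ libraries and did not pass (1.28 on the log2 scale, limma adjusted p = 0.0956). Sums of this list were 6334 to 11512 in YFP− and 3213 to 5815 in YFP+ libraries. Adgre1, which encodes the macrophage marker F4/80, was 1939 to 4439 in TEM YFP− and 217 to 604 in TEM YFP+ libraries (-2.99 on the log2 scale, limma adjusted p = 0.0153). Both CD8 T cell markers were also lower, with sums of 685 to 1490 and 187 to 373. The part of these cells in the Havcr2 difference was not tested.

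CD160 is a receptor of NK cells, innate-like T cells and some effector T cells that shares the ligand HVEM with BTLA. Cd160 was 34.6, 27.6 and 54.1 normalized counts in naïve YFP− libraries and 22.3, 27.5 and 29.8 in naïve YFP+. In TEM YFP− cells it was 333, 391 and 466, and in TEM YFP+ cells 2421, 1431 and 3102. The 3 TEM YFP+ libraries lay above all others. Cd160 was higher in TEM YFP+ than in TEM YFP− cells by 2.49 on the log2 scale (SE 0.31, 95% interval 1.82 to 3.16, limma adjusted p = 4.7e-04), and the ratio of YFP+ to YFP− was 7.27, 3.66 and 6.66 in replicates 1, 2 and 3. It passed with each TEM library left out (limma adjusted p from 3.6e-04 to 0.0040).

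Markers of innate-like lymphocytes moved with Cd160 between the TEM groups. All 4 iNKT markers (Trav11, Trav11d, Zbtb16 and Klrb1c) were higher in TEM YFP+ cells, with sums of 439 to 679 normalized counts in TEM YFP− and 3730 to 8798 in TEM YFP+ libraries. Trav11 and Trav11d had nearly the same values, at 2303, 937 and 2185 and at 2437, 1039 and 2329 in TEM YFP+ libraries, and are not independent markers. Klrb1c is also in the NK and innate-like list below. The ratio of YFP+ to YFP− for the iNKT sum was 13.0, 8.49 and 13.7 in replicates 1, 2 and 3. Among TEM YFP+ libraries replicate 2 was the lowest for this sum and for Cd160, while the highest was replicate 1 for the sum and replicate 3 for Cd160. In TEM YFP− libraries the order differed, with replicate 1 the highest for the sum (679) and the lowest for Cd160 (333). Of 6 NK and innate-like markers 4 were higher, with sums of 760 to 997 in YFP− and 2820 to 3700 in YFP+ libraries. Ncr1 was at 0 in all TEM YFP− libraries and low, at 6.21 to 56.1, in TEM YFP+ libraries. Eomes and Gzma did not pass. Eomes went the other way, with 453 to 634 in TEM YFP− and 336 to 460 in TEM YFP+ libraries. Of the 4 γδ T cell markers tested 3 were higher, all of them γ chain constant genes, some of which are close copies of each other. Trdc, the δ chain constant gene, did not pass (-0.28 on the log2 scale, limma adjusted p = 0.566). Sums of the γδ list were 416 to 533 in YFP− and 1948 to 3725 in YFP+ libraries. The part of these cells in the Cd160 difference was not tested.

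**Figure D2:**
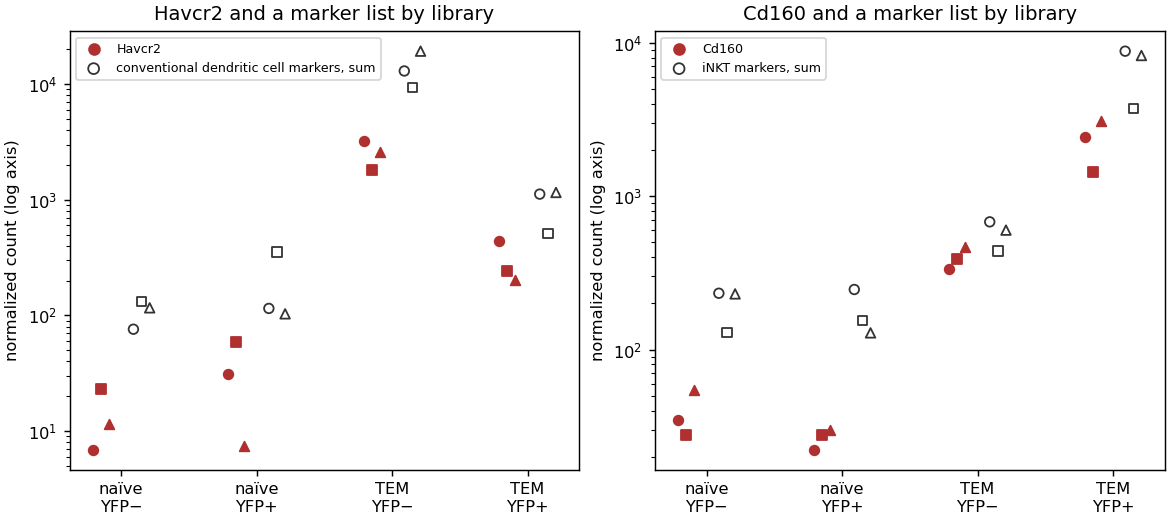
Normalized counts (log axis) of Havcr2 beside the summed conventional dendritic cell markers (left) and of Cd160 beside the summed iNKT markers (right) in the 12 libraries, with symbols for replicates 1 (circle), 2 (square) and 3 (triangle). In TEM cells the dendritic cell sum falls from 9329 or more to 1158 or less with YFP, as Havcr2 does from 1814 or more to 437 or less, and the iNKT sum rises from 679 or less to 3730 or more.

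In TEM cells 1 of the 6 members was thus higher and 1 lower in YFP+ cells. Over all genes tested, 6.97% passed in this comparison, 2.3% higher and 4.67% lower, and groups did not overlap in 10.6% as higher and 14.3% as lower in YFP+ cells. With the replicate number as a block, 1869 genes passed in place of 1087, and the same 2 members passed (limma adjusted p = 0.0050 for Havcr2 and 1.3e-04 for Cd160). The median log2 difference was -0.18 over the members and -0.01 over all genes tested.

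The other 4 members did not pass in TEM cells, and the width of their intervals differed. The YFP+ minus YFP− difference was -0.18 for Pdcd1 (95% interval -0.93 to 0.58, limma adjusted p = 0.902) and -0.19 for Tigit (-1.24 to 0.86, limma adjusted p = 0.931). It was -0.27 for Lag3 (-2.11 to 1.57, limma adjusted p = 0.946) and -0.10 for Btla (-0.71 to 0.50, limma adjusted p = 0.935). The replicate block narrowed the interval to -0.82 to 0.28 for Lag3, -0.69 to 0.33 for Pdcd1, -0.70 to 0.32 for Tigit and -0.35 to 0.14 for Btla. Within replicate numbers, Pdcd1, Lag3 and Tigit were lower in YFP+ cells in replicates 1 and 3 and higher in replicate 2.

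**Figure D3:**
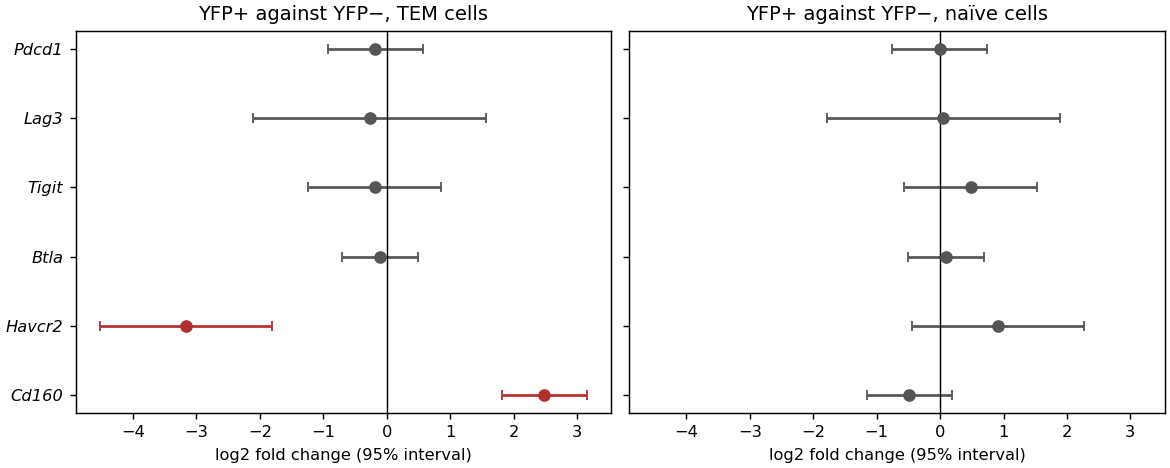
Log2 fold change of YFP+ over YFP− (x axis) with its 95% interval from limma for each receptor, in TEM cells (left) and naïve cells (right), 3 libraries per group. Red marks an adjusted p of 0.05 or less. Among TEM cells Havcr2 sits at -3.17 and Cd160 at 2.49, the other 4 intervals cross 0, and every interval crosses 0 in naïve cells.

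In naïve cells 0 of the 6 members passed in limma, edgeR or DESeq2, and 0 had an unadjusted limma p of 0.05 or less, where 3.32% of all genes tested did and 0.00642% passed. The largest differences were 0.92 for Havcr2 (95% interval -0.44 to 2.27, limma adjusted p = 1) and -0.49 for Cd160 (-1.15 to 0.18, limma adjusted p = 1). Both are opposite in sign to those in TEM cells. Havcr2 reads were few here, with 6 in the lowest naïve YFP− library. The naïve YFP+ library with the highest Havcr2, replicate 2, also had the highest sum of conventional dendritic cell markers, at 353 normalized counts against 76.0 to 132 in the other naïve libraries. It stood apart further in erythroid markers, with a sum of 2537 against 30.0 to 596, and in neutrophil markers, with 261 against 0 to 35.0, and Adgre1 was 367 against 25.3 to 77.9. The part of these cells in the Havcr2 value was not tested.

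The difference of the YFP effects, TEM minus naïve, was -4.08 on the log2 scale for Havcr2 (SE 0.88, limma adjusted p = 0.0234) and 2.97 for Cd160 (SE 0.44, limma adjusted p = 0.0043). Thus 1 member passed in each direction, where 0.828% of all genes tested passed as higher and 2.73% as lower. The Cd160 difference passed with each of the 12 libraries left out (limma adjusted p from 0.0019 to 0.0167). The Havcr2 difference passed in 6 of these 12 fits and missed the threshold without TEM YFP− replicate 1 (-3.89, limma adjusted p = 0.0747) or 3 (-4.05, 0.0729), TEM YFP+ replicate 2 (-3.98, 0.0514) or 3 (-3.85, 0.0656), or naïve YFP− replicate 1 (-3.70, 0.0626) or 3 (-4.03, 0.0586). With replicate 1 or replicate 3 left out of every group, 0 of all genes tested passed this test. The other 4 members had limma adjusted p from 0.909 to 0.995.

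From naïve to TEM cells, 5 of 6 members were higher in YFP− cells and the same 5 in YFP+ cells, all but Btla. Over all genes tested 29.9% were higher and 19.9% lower in YFP− cells, and 24.7% higher and 16.7% lower in YFP+ cells. The TEM libraries lay above the naïve libraries without overlap for the same 5 members in either fraction, as they did for 33.9% of all genes in YFP− and 27.4% in YFP+ cells. Havcr2 rose by 7.54 on the log2 scale in YFP− (SE 0.62, limma adjusted p = 9.1e-07) and by 3.46 in YFP+ cells (SE 0.62, limma adjusted p = 7.2e-04). Cd160 rose by 3.36 in YFP− (SE 0.31, limma adjusted p = 2.1e-06) and by 6.34 in YFP+ cells (SE 0.31, limma adjusted p = 1.8e-08). These comparisons share libraries with the comparisons by YFP status and are given side by side. In bulk RNA, a change in the number of cells that carry a transcript and a change in its amount per cell cannot be told apart.

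Divided by exon length, the make-up of the set changed between naïve and TEM cells. Btla held 92.9% ± 0.187 (SD, n = 3) of the summed normalized counts per kb in naïve YFP− and 92.8% ± 0.911 in naïve YFP+ cells. In TEM YFP− cells Tigit held 38.1% ± 2.63, Pdcd1 26.2% ± 2.27, Lag3 17.9% ± 6.03 and Btla 12.2% ± 1.60. In TEM YFP+ cells the same receptors held 37.4% ± 1.14, 26.1% ± 3.01, 16.9% ± 6.92 and 13.1% ± 4.59. The share of Havcr2 was 4.81% ± 2.14 in TEM YFP− and 0.643% ± 0.407 in TEM YFP+ cells, and that of Cd160 0.762% ± 0.344 and 5.76% ± 4.04, so the 2 receptors changed places as the smallest component.

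**Figure D4:**
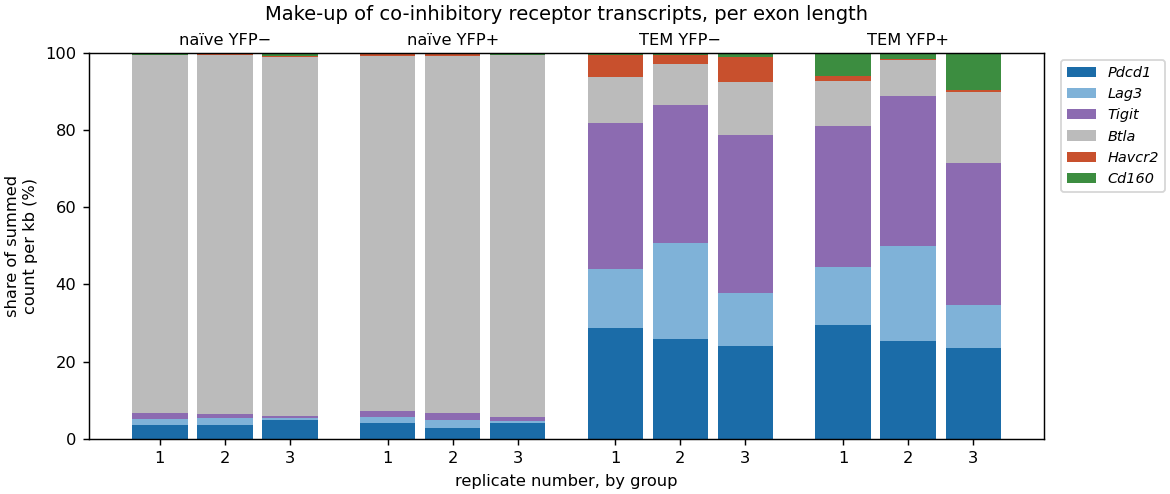
Share of each receptor in the summed normalized count per kb of exon (y axis, percent) in each of the 12 libraries, ordered by group and replicate number. Btla makes up 92.0 to 93.8% of the bars of naïve cells, and Tigit 35.7 to 40.9% in TEM cells. Cd160 reaches 9.63% and Havcr2 6.3% in their highest libraries.

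The level of the set also varied by replicate number. Replicate 2 was the highest library in all 4 groups for Pdcd1, Lag3, Tigit and Btla, a pattern seen in 5.24% of all genes tested, and replicate 3 was the lowest in all 4 groups for Lag3 and Tigit, as in 4.61% of all genes. Lag3 in replicate 2 was above its group mean by 1.03 and 1.44 on the log2 scale in naïve YFP− and YFP+ cells and by 0.97 and 1.52 in TEM YFP− and YFP+ cells. Btla deviated less, with replicate 2 above its group mean by 0.27 to 0.56. Cd160 had its highest value in replicate 3 in all 4 groups. One and the same replicate, whichever it was, was highest in all 4 groups for 18.4% of all genes tested. The sum of a list of follicular helper T cell markers (Cxcr5, Bcl6, Icos, Il21, Sh2d1a and Tox2) was also highest in replicate 2 of the TEM cells. It was 31815, 40285 and 29218 normalized counts in YFP− and 29372, 44997 and 25208 in YFP+ libraries. Replicate 2 was highest in both TEM groups for 15.2% of all genes tested. Icos was highest in replicate 1 of the TEM YFP+ libraries (15580 against 15349 in replicate 2). In naïve cells the sums of the list were 5308 to 6467, with replicate 1 highest in YFP+ cells. All 6 of its genes passed as higher in TEM than in naïve cells of both YFP fractions, and 0 of 6 passed by YFP status in TEM cells in limma, edgeR or DESeq2, with 0 at an unadjusted p of 0.05 or less. All 6 regulatory T cell markers (Foxp3, Il2ra, Ikzf2, Ctla4, Tnfrsf18 and Il10) also passed as higher in TEM cells of both fractions, with sums of 51468 to 69538 in TEM YFP−, 42562 to 48931 in TEM YFP+ and 5346 to 9616 in naïve libraries. Over all genes tested 29.9% were higher in TEM than in naïve cells in the YFP− and 24.7% in the YFP+ fraction. By YFP status in TEM cells 1 of the 6, Foxp3, passed as lower in YFP+ cells (-0.87 on the log2 scale, limma adjusted p = 0.0450). For this list edgeR called 0 and DESeq2 called 1. Il2ra went the other way and did not pass, with 5038, 3824 and 6136 normalized counts in TEM YFP− and 9016, 5136 and 9195 in TEM YFP+ libraries. The part of either list in the levels or the replicate order of the receptors was not tested.

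**Figure D5:**
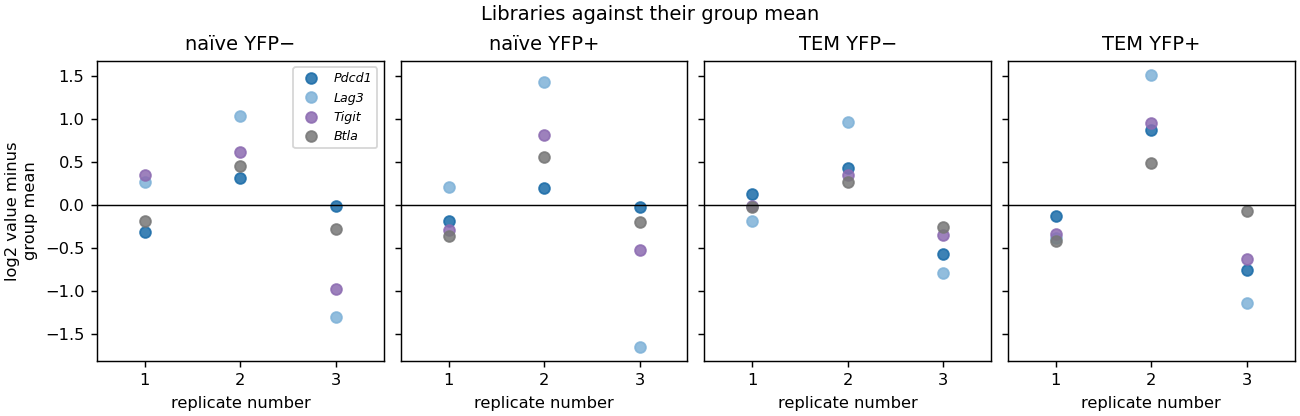
Log2 normalized count of each library minus its group mean (y axis) for Pdcd1, Lag3, Tigit and Btla, by replicate number within each of the 4 groups. Replicate 2 lies above the mean for all 4 genes in all 4 groups, most for Lag3 in TEM YFP+ cells at 1.52.

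Ligands and partners of the 6 receptors were read as a list of 14 genes, of which 13 were tested. In TEM cells 2 were higher in YFP+ cells, 1 was lower and 10 did not pass. Over all genes tested 2.3% passed as higher and 4.67% as lower. Cd226, the activating counterpart of TIGIT, was 3444, 3071 and 3871 normalized counts in TEM YFP− and 6535, 4095 and 7938 in TEM YFP+ libraries, a difference of 0.79 on the log2 scale (SE 0.20, limma adjusted p = 0.0320). Pvr, the ligand that CD226 and TIGIT share, was 1059, 902 and 967 in TEM YFP− and 1322, 1250 and 1464 in TEM YFP+ libraries (0.46, SE 0.10, limma adjusted p = 0.0116). The groups did not overlap for either gene, while Tigit itself did not pass. Ceacam1, a partner of TIM-3, moved the same way as Havcr2, with 267, 165 and 398 in TEM YFP− against 46.5, 19.7 and 48.5 in TEM YFP+ libraries (-2.84, SE 0.40, limma adjusted p = 9.6e-04). The dendritic cell markers moved with Ceacam1 too, with sums of 13010, 9329 and 19300 in TEM YFP− and 1120, 513 and 1158 in TEM YFP+ libraries, and the iNKT markers moved with Cd226, with 679, 439 and 600 in TEM YFP− and 8798, 3730 and 8242 in TEM YFP+ libraries. Replicate 2 was the lowest library of each TEM group for both genes and both lists. The part of these markers was not tested.

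The partners that did not pass by YFP status in TEM cells included those of PD-1 and BTLA. Tnfrsf14, which encodes the HVEM bound by BTLA and CD160, differed by 0.04 on the log2 scale (limma adjusted p = 0.953), and Tnfsf14, which encodes LIGHT, another HVEM ligand, by 0.72 (limma adjusted p = 0.555). The PD-1 ligand genes Cd274 and Pdcd1lg2 differed by -0.23 and -0.01 (limma adjusted p = 0.531 and 0.993). Lgals9, for galectin-9, differed by 0.23, Lgals3, for galectin-3, by -1.24, Cd96 by 0.44 and Cd80 by -1.05 (limma adjusted p = 0.427, 0.175, 0.225 and 0.292). Nectin2 and Nectin3, of the TIGIT ligand family, were low, with means of 24.4 and 6.13 normalized counts in TEM YFP− cells. Fgl1, a LAG-3 ligand, was not analysed here.

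From naïve to TEM cells 9 of the 13 partners were higher and 3 lower in YFP− cells, and 7 were higher and 2 lower in YFP+ cells. Over all genes tested 29.9% were higher and 19.9% lower in YFP−, and 24.7% higher and 16.7% lower in YFP+ cells. Pdcd1lg2 rose from a mean of 51.6 normalized counts in naïve YFP− to 1281 in TEM YFP− cells (4.63 on the log2 scale, limma adjusted p = 4.6e-09). Tnfsf14 rose from 38.2 to 2531 (6.23, limma adjusted p = 5.6e-07). Pvr and Tnfrsf14 were lower in TEM YFP− than in naïve YFP− cells, with differences of -1.28 and -0.51 on the log2 scale (limma adjusted p = 5.2e-07 and 0.0080).

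Other inhibitory receptors were read as a list of 12. Over all genes tested 2.3% were higher and 4.67% lower in TEM YFP+ cells, and of this list 0 were higher and 3 lower. These were Lair1, a collagen receptor (-2.29 on the log2 scale, limma adjusted p = 1.1e-04), Cd244a, a receptor of the SLAM family (-3.93, limma adjusted p = 0.0049), and Cd300a, a receptor for membrane lipids (-3.57, limma adjusted p = 0.0116). Each is known from myeloid or NK cells as well as T cells, and each was lower in every TEM YFP+ than in every TEM YFP− library, as Havcr2 was. Cd300a was 1960, 1815 and 3208 normalized counts in TEM YFP− and 215, 142 and 221 in TEM YFP+ libraries. The dendritic cell markers given above moved with all 3 genes, and their part was not tested. From naïve to TEM cells 10 of the 12 were higher and 1 lower in YFP− cells, and 6 higher and 2 lower in YFP+ cells. Over all genes tested 29.9% were higher and 19.9% lower in YFP−, and 24.7% higher and 16.7% lower in YFP+ cells.

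Genes of inhibitory signalling, such as phosphatases and adaptors, did not pass by YFP status in TEM cells. Of 15 tested, 0 passed in limma, where 2 reached an unadjusted p of 0.05, and edgeR and DESeq2 called 0 and 2. Over all genes tested 6.97% passed in limma. Of 18 transcription factors tied to these receptors 1 passed in TEM cells, Tbx21, which encodes T-bet, at 2357, 2692 and 2207 normalized counts in YFP− and 3890, 3418 and 4363 in YFP+ libraries (0.68 on the log2 scale, SE 0.19, limma adjusted p = 0.0477). From naïve to TEM cells 13 of these 18 were higher and 2 lower in each YFP fraction. Of the signalling genes 6 were higher and 3 lower in YFP− and 7 higher and 4 lower in YFP+ cells. Over all genes tested 29.9% were higher and 19.9% lower in YFP−, and 24.7% higher and 16.7% lower in YFP+ cells.

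The genes with the profile most like each member were sought over the 12 libraries, by the root mean square difference of log2 values after centring each gene on its own mean, among the 11913 genes whose mean reached 50 normalized counts. Within the set, Lag3 and Tigit were closest (0.78 on the log2 scale), followed by Pdcd1 and Lag3 (0.98), and Tigit and Btla were farthest apart (3.96). Nearest to Tigit were Gpm6b (0.38), Angptl2 (0.40) and Tox2 (0.44), and nearest to Pdcd1 were Fam160a1 (0.38) and Coro2b (0.39). Nearest to Lag3 were Gucy2g (0.54), Cacna1d (0.57) and Gna14 (0.60). Havcr2 was closest to Nav1 (0.60), Gp2 (0.62) and Adam11 (0.64), whose means were 3464, 2486 and 721 normalized counts in TEM YFP− and 518, 136 and 33.1 in TEM YFP+ cells. Cd160 was closest to Sytl3 (0.53), Socs2 (0.58) and Edaradd (0.60), with means of 1635, 884 and 73.8 in TEM YFP− and 4120, 1861 and 503 in TEM YFP+ cells. Btla, which varied little, was closest to Ap4b1 (0.14), Irf7 (0.15) and Ermard (0.15). Likeness is a description over libraries that share processing. The study states fewer mice than the 12 libraries, so some libraries share mice. Which libraries do so is not given in the sources used here.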

How the data were processed

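CD4+ T cells were sorted into 4 groups of 3 libraries, per the labels. According to the study, 3 mice were used, RNA was sequenced with a stranded total RNA kit, reads were mapped to mm10 with DRAGEN, counted with Rsubread and analysed with DESeq2. Tool versions and the annotation are not given in the sources used here. The deposited signal consists of normalized counts, which the authors made by scaling each library's reads with a DESeq2 size factor. Multiplied back, 100% of values were whole reads (within 0.01), on which edgeR 4.0.16 and DESeq2 1.42.0 were run as alternatives. Library totals ranged from 40974124 to 57822269 reads, and 0 columns were left unused. Entrez identifiers were looked up in RefSeq (GRCm38.p6), which named 16749 genes, and exon lengths came from GENCODE M21.

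The 15587 genes that reached 5 normalized counts in 3 or more libraries were tested on log2(normalized count + 1) with limma 3.58.1 in R 4.3.3 (4 group means, 12 libraries, eBayes with trend, 8 residual degrees of freedom), with Benjamini-Hochberg adjustment over all of them. A gene passed at an adjusted p of 0.05 or less. The 5 comparisons were YFP+ against YFP− in TEM and in naïve cells, their difference, and TEM against naïve cells in each YFP fraction. The fit was tested on simulated data. Genes named are the 6 receptors, the 14 partners, genes of other lists that passed by YFP status in TEM cells with a mean of at least 50 (at most 6 a list), defining cell type markers, Cd44, Cd4 and Csf2, and the 3 genes most like each receptor. A few genes and the marker sums that hold them are not reported here. The receptors and lists were chosen with earlier results of these data known. Where nothing says that libraries of a group came from separate mice, p-values measure only the spread between these libraries.

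Replicate numbers come from the labels. Same-numbered YFP− and YFP+ libraries deviated together from their group means, with correlations across genes of 0.180, 0.338 and 0.356 in TEM and 0.306, 0.491 and 0.360 in naïve cells, so a fit with the replicate number as a block is given for those comparisons. For TEM against naïve cells these correlations were 0.168, 0.137 and 0.232 in YFP− but 0.204, -0.0199 and 0.0561 in YFP+ cells. Alternatives were another pseudocount, filter, scaling, tool or spread model, the study's fold threshold, and libraries left out.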

Additional observations from a re-analysis of the deposited data

Results flagged for a closer look

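The effect of YFP status differed between TEM and naïve cells for 2 of the 6 receptors by the test of that difference in limma. For Havcr2 the effect in TEM cells minus that in naïve cells was -4.08 on the log2 scale (limma adjusted p = 0.0234), with Havcr2 lower in YFP+ cells in all 3 pairs of TEM libraries and higher in YFP+ cells in 2 of 3 pairs of naïve libraries. For Cd160 it was 2.97 (limma adjusted p = 0.0043), with Cd160 higher in YFP+ cells in all 3 TEM pairs, lower in naïve replicates 1 and 3, and nearly equal in naïve replicate 2 (27.6 and 27.5 normalized counts). Both genes were low in naïve cells, with fewer than 60 normalized counts in every naïve library. No test of single outlying libraries was run on groups of 3.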

How the results depend on the processing

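Between TEM and naïve cells the calls of all 6 receptors, and in TEM cells that of Cd160 by YFP status, kept their side of the threshold under every alternative run. The Havcr2 difference in TEM cells did so except without replicate 1 or 3 in every group, a choice added after seeing the data (-3.30 and -2.90 on the log2 scale), and the number of receptors lower in TEM YFP+ cells was then 0. For the difference between YFP effects in TEM and naïve cells, the number of receptors lower ranged from 0 to 1 with single libraries left out, and was 0 without replicate 1, 2 or 3 in every group and without a variance trend (Havcr2, adjusted p = 0.0619 in limma). The number higher was 0 without replicate 1 or 3 in every group. The cause of these changes was not tested.

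Changes of sign were limited to receptors and comparisons that did not pass. Lag3 by YFP status in TEM cells was 0.022 on the log2 scale in edgeR, and Btla between TEM and naïve YFP− cells 0.055 after quantile normalization. With single libraries left out, the YFP difference in TEM cells ranged from -0.61 to 0.20 for Pdcd1, -1.03 to 0.30 for Lag3, -0.67 to 0.12 for Tigit and -0.35 to 0.11 for Btla. In naïve cells it ranged from -0.16 to 0.15, -0.67 to 0.87, -0.0069 to 0.79 and -0.18 to 0.32 for the same genes. The difference of these effects ranged from -0.60 to 0.21 for Pdcd1, -1.15 to 0.40 for Lag3 and -0.44 to 0.081 for Btla, and TEM minus naïve Btla from -0.17 to 0.20 in YFP− and -0.47 to 0.049 in YFP+ cells. Without replicate 1 in every group the TEM YFP difference was 0.093 for Btla, and the difference of effects 0.023 for Pdcd1. Without replicate 2 in every group the naïve YFP difference was 0.046 for Pdcd1 and -0.15 for Lag3, and TEM minus naïve YFP− Btla 0.060. Without replicate 3 in every group the naïve YFP difference was 0.00067 for Pdcd1.

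Counts over all genes moved more. For YFP status in TEM cells 1087 genes passed, 543 with log2 fold changes beyond 2 in size, 574 to 987 with single libraries left out, and 286 and 123 without replicate 1 and replicate 3 in every group. In naïve cells 1 gene passed, 0 with that fold threshold, with only those libraries or without any replicate number in every group, 2 with TMM or edgeR, 3 with a pseudocount of 0.1, 14 with DESeq2, and 0 to 1 with single libraries left out. For the difference of YFP effects 554 passed, 844 with DESeq2, 267 to 531 with single libraries left out, and 0 without replicate 1 or 3 in every group. From naïve to TEM cells 7769 genes passed in YFP− and 6453 in YFP+ cells, 2750 and 2020 with the fold threshold, and 5132 and 3858 without replicate 3 in every group.

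The replicate block changed no call of a receptor. With the block 1869 genes passed by YFP status in TEM cells, 6 in naïve cells and 890 for the difference. With the block in edgeR and DESeq2, added after seeing the data, 2098 and 2411 passed in TEM and 6 and 69 in naïve cells, and 1238 for the difference in DESeq2. Depth limits Havcr2, Tigit and Cd160 in naïve cells, where the lowest libraries held 6, 11 and 18 reads.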
